A study of Mus musculus with 2 samples.

Results

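The genes described here are the ligands and receptors of Eph, Slit-Robo and netrin guidance, a set of 38 named genes of which 37 were found by gene identifier among 21473 protein-coding genes with a symbol. They were chosen by name and not by a threshold on their levels, though with earlier results of these data known. The RNA came from forebrain of healthy B6NCrl mouse embryos at embryonic day 12.5, without a treatment or a mutation, and total RNA was sequenced from 10 ng per library. The 2 samples form 1 group: replicate 1 pooled 120 embryos and replicate 2 pooled 68, both of mixed sex, so a value is an average over many embryos and over every cell type of the dissected tissue. No contrast between conditions exists, and the comparisons are those between ligands and receptors, between members of a family and between the pools. Levels are in TPM (a gene's share of the transcripts of a library, per length of the gene), with the SD over the 2 pools.

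Growth cones and migrating neurons read guidance cues through a few families of ligands and receptors. Ephrins are tethered to the membrane, by a lipid anchor in the A class and by a transmembrane segment in the B class. They activate Eph receptor tyrosine kinases on the neighbouring cell and can also signal back into their own cell. Slits are secreted proteins that repel axons through Robo receptors, and netrins are laminin-related cues that attract through Dcc and repel through receptors of the Unc5 family. In the embryonic forebrain these families are known for their part in boundaries between territories, the midline crossing of axons and the routes of early thalamic and cortical axons.

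The tissue label was checked against marker genes first. All 8 forebrain markers exceeded 1 TPM in both pools, and of 14 hindbrain and spinal cord markers 1 did, Gbx2, at 23.2 TPM in replicate 1 and 22.4 in replicate 2. Gbx2 is also on the list of diencephalon markers, a forebrain region, whose 10 genes all passed 1 TPM. Depth, as the sum of expected counts (reads assigned by estimate, so not always whole numbers), was 33711030 for replicate 1 and 34578499 for replicate 2. The 37 guidance genes together held 842 TPM in replicate 1 and 864 in replicate 2.

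Nearly all of the guidance genes were expressed. Of the 37 genes, 35 (94.6%) reached 1 TPM in both pools, against 60.0% of all protein-coding genes. Their median level was 15.3 TPM, against 4.61 TPM for all protein-coding genes, many of which were not detected. Among genes at a mean of 1 TPM or more, the median was 19.5 TPM for guidance genes and 21.05 TPM for protein-coding genes. The guidance genes that were expressed were thus not above the background in level. The genes below 1 TPM in replicate 1 were the EphA receptor genes Epha1 and Epha6. Because the tissue is a mixture, fewer cells of a type and less RNA per cell cannot be told apart in any of these levels.

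**Figure D1:**
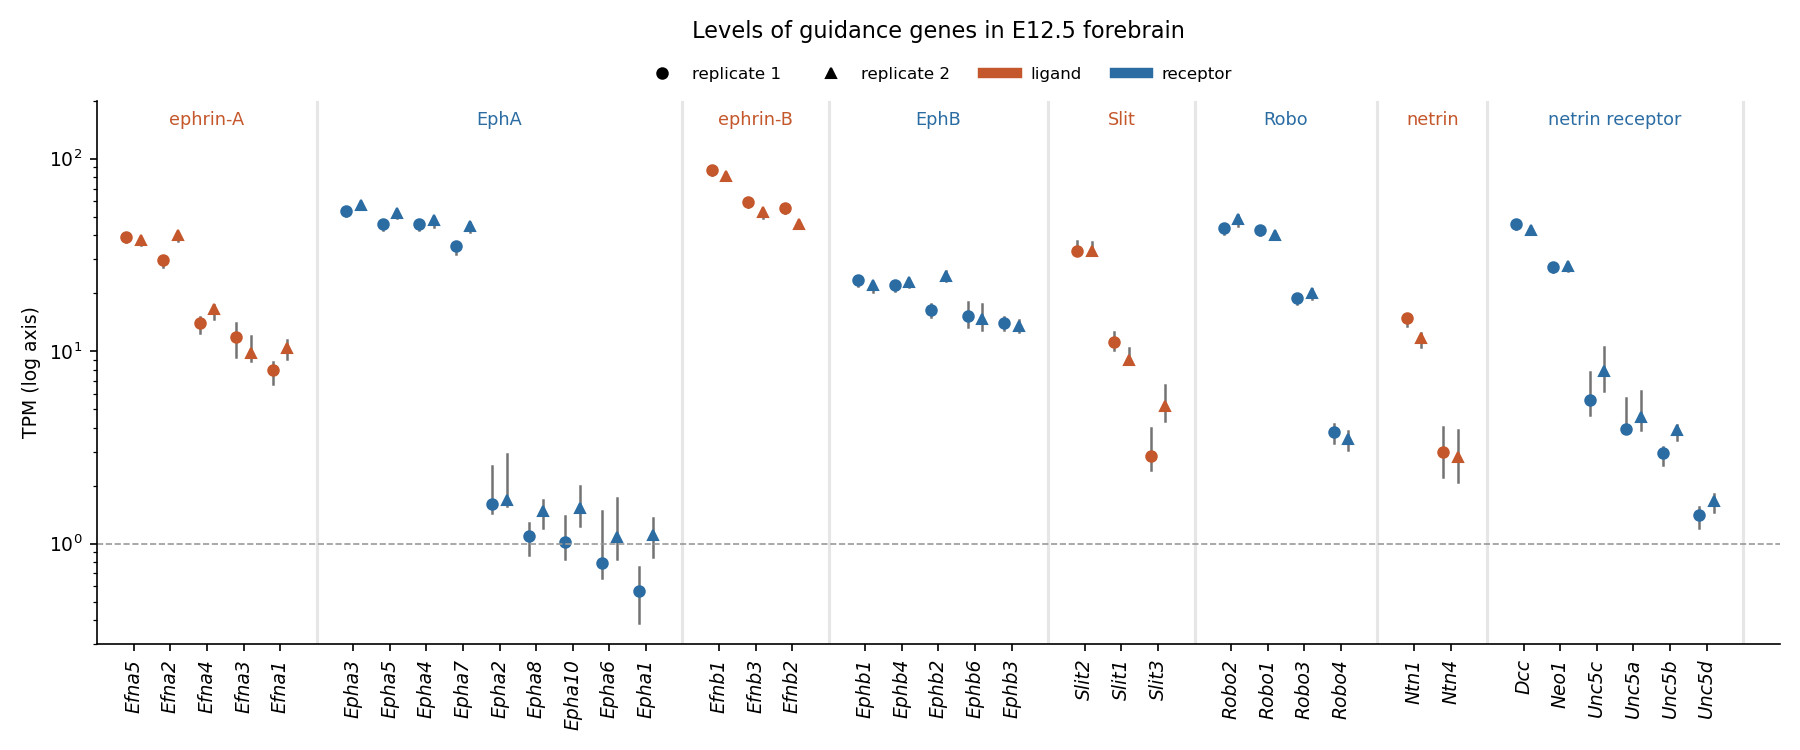
Levels of the 37 guidance genes in TPM on a log axis, ligands in orange and receptors in blue, ordered within each class by mean. Circles are replicate 1, triangles replicate 2, vertical lines the authors' deposited posterior intervals, and the dashed line is 1 TPM. The EphA receptors fall into a group of 4 above 30 TPM in each pool and a group of 5 below 2 TPM, whereas the 3 ephrin-B genes all lie above 45 TPM.

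Among the A-class ephrins, Efna5 and Efna2 were the most abundant. Efna5, known for the mapping of retinal and thalamic axons, measured 39.2 TPM in replicate 1 and 37.7 in replicate 2. Efna2 measured 29.9 TPM in replicate 1 and 40.3 in replicate 2, so that the order of the pair differed between the pools. Neighbours in the order of a class are said to differ only where the levels of both pools and the deposited intervals are apart. Efna4 followed at 14.1 and 16.5 TPM, which is 2.30-fold below Efna2 and apart from it in both pools. Efna3 measured 11.8 TPM in replicate 1 and 9.78 in replicate 2, and Efna1, an ephrin also known from blood vessels, 7.94 and 10.4 TPM. Efna4 lay above Efna3 in both pools, but their deposited intervals overlapped in replicate 1. The pools of Efna3 and Efna1 overlapped. These 3 genes stand in a row on the minus strand of chromosome 3 (GRCm38), Efna1 32.8 kb from Efna3 and Efna3 10.4 kb from Efna4. The expected counts of Efna3 and Efna4 were not whole numbers, so some reads were shared with other entries.

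The EphA receptor genes split into an abundant and a scarce group. Epha3 (ENSMUSG00000052504, chromosome 16, 63543534 to 63864175, minus strand) was the highest, with 53.4 TPM in replicate 1 and 57.5 in replicate 2. Epha5, a receptor for several A-class ephrins, had 45.8 TPM in replicate 1 and 52.1 in replicate 2. Epha4, which binds ephrins of both classes, had 45.8 and 47.8 TPM. Epha7, known for repulsion and for the control of progenitor number in the cortex, had 35.0 TPM in replicate 1 and 44.5 in replicate 2. Epha3 stood above Epha5 in both pools, while the pools of Epha5 and Epha4 overlapped. Epha4 lay above Epha7 in both pools, with deposited intervals that were apart in replicate 1 but overlapped in replicate 2. These 4 genes held 97.0 ± 0.40% of the EphA receptor TPM (SD, n = 2).

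The remaining 5 EphA genes summed to 5.08 TPM in replicate 1 and 6.90 in replicate 2. Epha2, best known from epithelia, led them with 1.60 and 1.69 TPM, and the step between Epha7 and Epha2 was 24.1-fold, the largest between neighbours in any class. Epha8, a receptor known from the midbrain tectum, had 1.10 TPM in replicate 1 and 1.48 in replicate 2. Epha10, whose kinase domain is reported to be inactive, had 1.02 and 1.54 TPM. Epha6 measured 0.79 and 1.08 TPM and Epha1, a receptor of epithelial cells, 0.57 and 1.11 TPM. Among these 5, no gene differed from the next one in the order by both the pools and the intervals. They rest on few reads, for example 36.2 expected counts for Epha1 in replicate 1 and 74.2 in replicate 2.

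All 3 B-class ephrins were abundant, and Efnb1 was the highest of all 37 genes. Efnb1 (ENSMUSG00000031217, chromosome X, 99136130 to 99148991, plus strand), the ephrin affected in craniofrontonasal syndrome in humans, measured 87.0 TPM in replicate 1 and 81.8 in replicate 2. Efnb3, a midline cue that binds Epha4 as well as EphB receptors, measured 59.8 and 52.6 TPM. Efnb2, which is also the arterial partner of Ephb4 in blood vessels, measured 55.4 TPM in replicate 1 and 46.0 in replicate 2. Efnb1 exceeded Efnb3 1.50-fold and was apart from it in both pools, while Efnb3 and Efnb2 did not differ beyond the pools.

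The EphB receptors lay close together. Ephb1, which guides the ipsilateral retinal axons, had 23.4 TPM in replicate 1 and 22.0 in replicate 2. Ephb4, the venous receptor for Efnb2, had 22.0 and 22.8 TPM, and Ephb2, a receptor of commissural axons and synapses, 16.4 and 24.7 TPM. Ephb6, which is reported to lack kinase activity, had 15.2 TPM in replicate 1 and 14.7 in replicate 2, and Ephb3 14.1 and 13.5 TPM. Ephb2 and Ephb6 were apart in the pools, but their deposited intervals overlapped in replicate 1. Ephb6 and Ephb3 were apart in the pools, with overlapping intervals in both. The pools of the other neighbours overlapped. The means ran from 22.7 TPM for Ephb1 down to 13.8 TPM for Ephb3. The 10 endothelial markers, beside which Ephb4 and Efnb2 can be read, summed to 157 TPM in replicate 1 and 162 in replicate 2; the part of endothelial cells in these 2 levels was not tested.

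**Figure D2:**
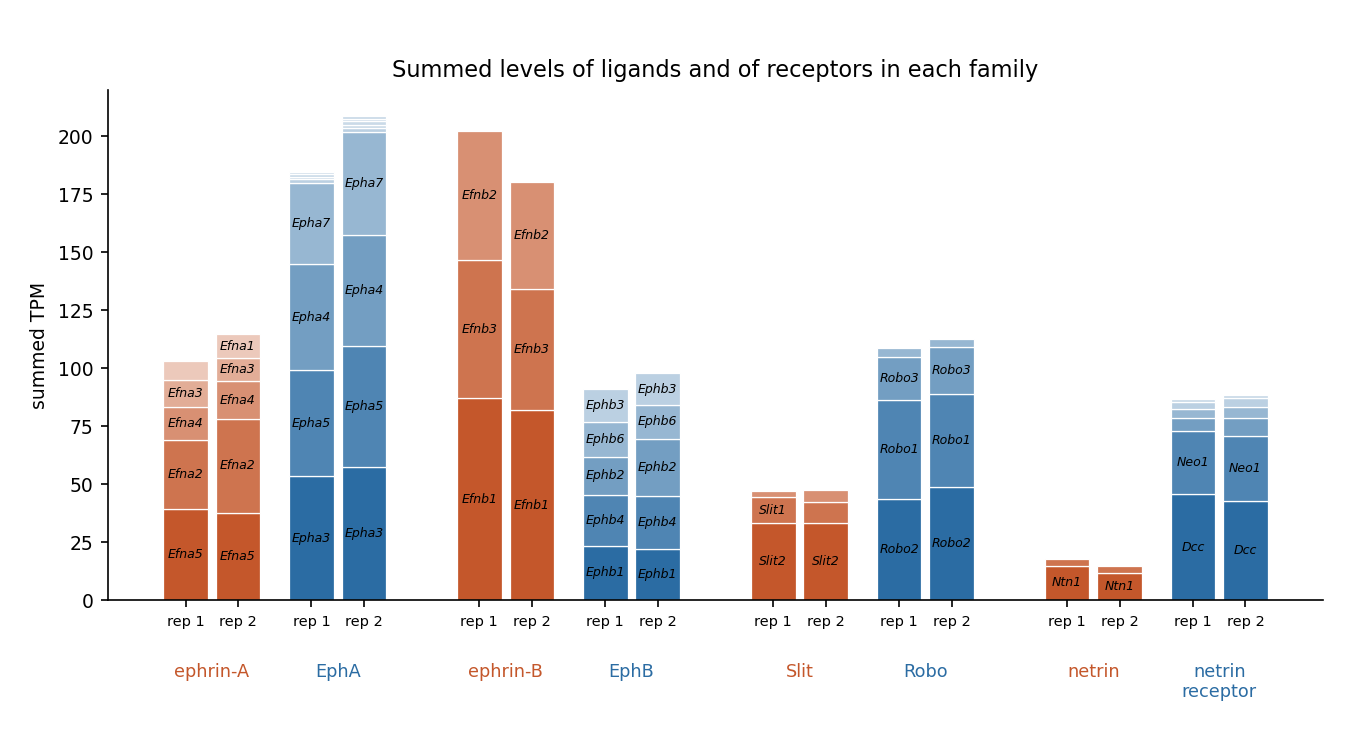
Summed TPM of the ligands (orange) and of the receptors (blue) of each family in replicate 1 and replicate 2, stacked by gene from the highest at the bottom. Bars start at 0 and genes above 9 TPM are named. Ligands exceed receptors in the ephrin-B and EphB pair, at 202 against 91.0 TPM in replicate 1, and fall below them in the other 3 families.

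Summed over its genes, only 1 of the 4 families had more ligand than receptor RNA. Ephrin-B genes summed to 202 TPM in replicate 1 and 180.3 in replicate 2, against 91.0 and 97.7 TPM for EphB receptors, a ratio of 2.03 ± 0.27 (SD, n = 2). Ephrin-A genes summed to 103 and 115 TPM, against 185 and 209 TPM for EphA receptors, a ratio of 0.553 ± 0.0051. That direction belongs to the sums: the median ephrin-A gene stood above the median EphA gene, 14.1 against 1.60 TPM in replicate 1 and 16.5 against 1.69 TPM in replicate 2, because 5 of the 9 EphA genes were scarce. With protein-coding transcripts alone the ratio of the sums was 0.820. Coding transcripts held 49.3% of the Epha5 TPM in replicate 1 and 46.2% in replicate 2. They held 59.2% and 49.8% of Epha7 and 36.4% and 73.8% of Epha4. The Epha4 share in replicate 1 is uncertain, as described below.

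Among the Slits, Slit2 carried most of the level. Slit2, the main midline repellent of forebrain tracts together with Slit1, had 33.1 TPM in replicate 1 and 33.2 in replicate 2, which is 70.1 ± 0.12% of the Slit TPM. Slit1 had 11.2 and 9.00 TPM, and Slit3, which is also expressed in mesenchyme, 2.86 and 5.19 TPM. Both steps, 3.29-fold and 2.50-fold, held in both pools.

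Of the Robo genes, Robo2 and Robo1, the Slit receptors of forebrain axons and migrating interneurons, were highest and together held 79.1 ± 0.066% of the Robo TPM. Robo2 had 43.7 TPM in replicate 1 and 48.7 in replicate 2, and Robo1 had 42.4 and 40.3 TPM, values whose deposited intervals were not apart in both pools. Robo3, a receptor of commissural axons that in mammals binds Nell2 and not Slits, had 18.9 and 20.1 TPM, below Robo1 by 2.12-fold. Robo4, an endothelial member of the family, had 3.82 TPM in replicate 1 and 3.51 in replicate 2, a further 5.31-fold below. Robo3 and Robo4 lie end to end on chromosome 9, Robo4 on the plus strand (37401897 to 37415115) and Robo3 on the minus strand (37415669 to 37433246), with 553 bases between them. No source used here says that counting used strand.

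Slit genes summed to 47.1 TPM in replicate 1 and 47.4 in replicate 2, against 109 and 112 TPM for Robo receptors, a ratio of 0.427 ± 0.0082. Without Robo3 and Robo4 the ratio was 0.540, and without Slit2 and Robo2, the highest of each side, it was 0.219. Receptors thus exceeded ligands in each of these forms.

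Netrin ligands were the least abundant side of any family. Ntn1, the founding chemoattractant of commissural axons, had 14.8 TPM in replicate 1 and 11.6 in replicate 2, and Ntn4, a netrin that binds laminins in basement membranes, 3.01 and 2.82 TPM. Ntn3 was not found by its gene identifier. Its transcript Ntn3-201 is listed under an older identifier at 3.15 TPM in replicate 1 and 3.61 in replicate 2. On chromosome 17 it overlaps Tbc1d24 on the same strand, where reads cannot be assigned to either gene with certainty, so it was left out of the counts and sums.

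Dcc, the attractive netrin receptor, was the highest gene of its class with 45.6 TPM in replicate 1 and 42.8 in replicate 2. Neo1 (neogenin), a relative of Dcc that also binds repulsive guidance molecules, had 27.3 and 27.8 TPM, 1.60-fold less. The 4 Unc5 genes together measured 13.9 TPM in replicate 1 and 18.0 in replicate 2, or 18.2 ± 3.1% of the netrin receptor TPM. Within them Unc5c, known from the migration of cerebellar granule cells, had 5.60 and 7.91 TPM, Unc5a 3.94 and 4.57 TPM and Unc5b, which is also known from endothelium, 2.95 and 3.89 TPM. Unc5d, a receptor of migrating cortical neurons, was lowest at 1.41 TPM in replicate 1 and 1.67 in replicate 2 and lay apart from Unc5b. Unc5c, Unc5a and Unc5b followed each other in this order in both pools. The intervals of Unc5c and Unc5a overlapped in both pools, and those of Unc5a and Unc5b in replicate 2 alone.

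Netrins summed to 17.8 TPM in replicate 1 and 14.5 in replicate 2, against 86.9 and 88.6 TPM for the receptors, a ratio of 0.184 ± 0.030. The medians ran the other way, with 8.91 TPM for the ligands against 4.77 TPM for the receptors in replicate 1 and 7.23 against 6.24 TPM in replicate 2. With Ntn3 added to the ligands the ratio of the sums was 0.223. Over all families, 12 of 29 pairs of neighbours differed by both measures, separate pools and separate intervals.

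Alternative transcripts change which protein a level stands for. The 37 genes have 147 transcripts in the annotation. In 14 genes 1 transcript held at least 95% of the TPM on average, Robo1, Neo1, Unc5b, Epha3 and Efna2 among them. Of the 35 genes at a mean of 1 TPM or more these were 13 (37.1%), against 37.6% of all protein-coding genes at that level. In 15 genes another transcript that differed from the leading one by at least 10% in coding length, or had no coding sequence, held at least 10% in both pools. Of the 35 genes these were 14 (40.0%), against 34.1% of all protein-coding genes. Both shares were near the background. Of the same 35 genes, 8 (22.9%) had less than 75% of their TPM in protein-coding transcripts in both pools. The share among all protein-coding genes was 18.6%, so the guidance genes were close to the background. The libraries were of total RNA, and the part of unspliced RNA in the retained-intron transcripts named below was not tested.

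**Figure D3:**
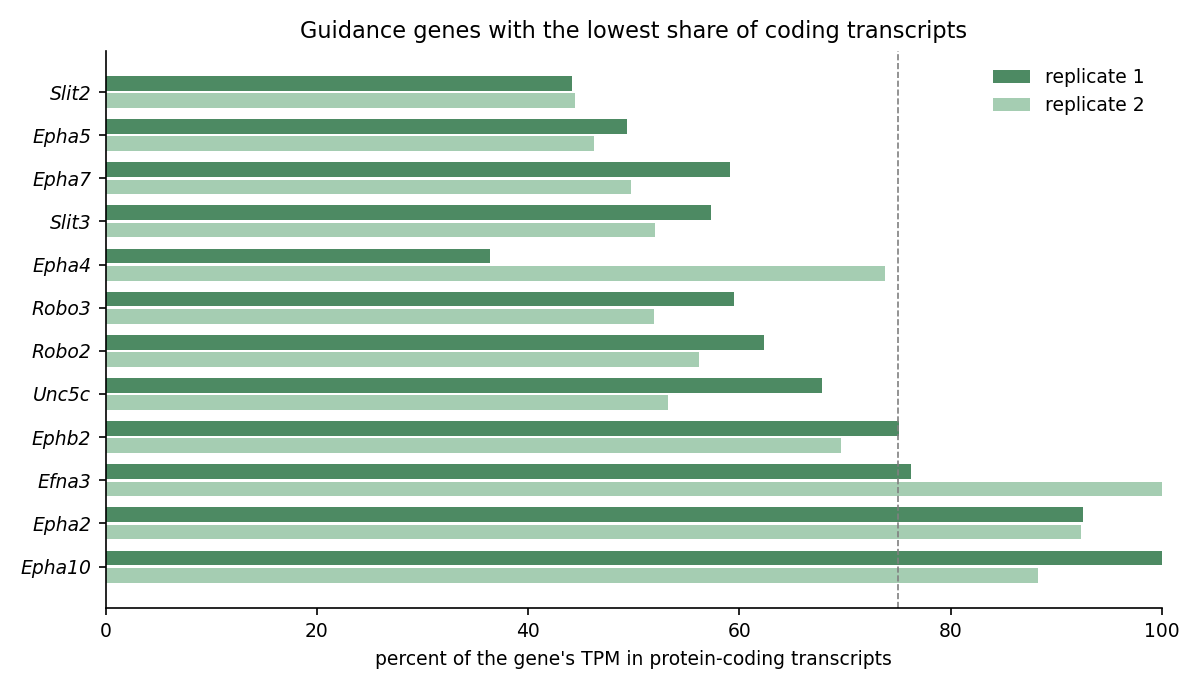
Percent of each gene's TPM that was assigned to protein-coding transcripts, for the 12 guidance genes at 1 TPM or more with the lowest mean share; dark bars are replicate 1, light bars replicate 2, and the dashed line is 75%. Slit2 and Epha5 are below 50% in both pools, and Epha4 shows the widest gap between the pools, 36.4% in replicate 1 and 73.8% in replicate 2.

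Epha7 is known for short receptors without a kinase domain beside the full-length one, and its reading frames are printed because they share their first part and then part ways. Capitals mark the bases after the last shared one, in GRCm38 on the plus strand of chromosome 4. The capitals of Epha7-201, chr4:28947528-28947587, are the first 60 of 1196 bases of the full-length frame that Epha7-202 does not share. Those of Epha7-202 are chr4:28946219-28946250 and those of Epha7-204 are chr4:28966523-28966602.
Epha7-201: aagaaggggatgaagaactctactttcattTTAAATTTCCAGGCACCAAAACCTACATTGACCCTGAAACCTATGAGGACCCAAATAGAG
Epha7-202: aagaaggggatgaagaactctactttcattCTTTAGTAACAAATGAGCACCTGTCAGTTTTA
Epha7-204: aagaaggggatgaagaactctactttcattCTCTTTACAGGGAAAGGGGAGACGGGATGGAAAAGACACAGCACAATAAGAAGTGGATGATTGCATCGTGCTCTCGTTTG

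The full-length transcript Epha7-201, with 2994 coding bases, had 13.2 TPM in replicate 1 and 14.2 in replicate 2. The short Epha7-202, with 1830 coding bases, had 3.98 and 5.76 TPM, and the other short form, Epha7-204 with 1878, had 2.15 TPM in replicate 1 and 0 in replicate 2. In replicate 1 the deposited interval of Epha7-204 ran from 0.0051 to 3.69 TPM, so its level there is uncertain. The short forms together held 15.2 ± 3.2% of the Epha7 TPM and were lower than the full-length form in both pools. A transcript without a coding sequence, Epha7-208, had 8.70 TPM in replicate 1 and 15.9 in replicate 2. The higher level of Epha7 in replicate 2 lay mostly in that transcript.

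Of the other abundant EphA genes, Epha3 has 1 transcript in these tables, which is coding, while Epha5 and Epha4 had large parts outside protein-coding transcripts. The retained-intron transcript Epha5-207 held 45.5% of the Epha5 TPM in replicate 1 and 46.9% in replicate 2. Its coding transcripts were led by Epha5-204 at 10.0 and 11.5 TPM and Epha5-205 at 9.63 and 9.30 TPM, which differ in coding length, 2457 against 3120 bases. In Epha4 the coding transcript Epha4-201 had 11.9 TPM in replicate 1 and 30.1 in replicate 2, and Epha4-205, classed as subject to nonsense-mediated decay, 21.6 and 0.01 TPM. Both have a coding sequence of 2958 bases, and their sum was 33.5 TPM in replicate 1 and 30.1 in replicate 2. In replicate 1 their deposited intervals overlapped widely, 1.61 to 28.9 TPM for Epha4-201 and 2.67 to 30.3 TPM for Epha4-205. In replicate 2 they were apart, 18.0 to 29.6 TPM for Epha4-201 and 0.0611 to 10.7 TPM for Epha4-205, and the TPM of each lay just outside its own interval. The low coding share of Epha4 in replicate 1 therefore includes a split that the intervals leave uncertain. Among the scarce genes, Epha10-201, with 876 coding bases, held 28.5% and 24.9%, and the retained-intron transcript Epha6-202 held 42.2% and 33.7%.

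Ephb6-203, with 137 coding bases, held 20.5% of the Ephb6 TPM in replicate 1 and 24.8% in replicate 2, beside the full-length Ephb6-201 at 12.1 and 11.0 TPM. In Ephb2 the pools differed in transcripts other than the leading one. The long transcript Ephb2-202 had 9.37 TPM in replicate 1 and 9.81 in replicate 2. Ephb2-201 had 2.60 and 7.02 TPM, and the retained-intron transcript Ephb2-204 had 3.79 and 7.50 TPM. Ephb2-201 has 1 codon that Ephb2-202 lacks, which is printed in capitals within its surroundings (minus strand of chromosome 4, chr4:136675531-136675533), but the transcripts differ more in length, 4804 against 10902 bases, and reads over the codon were not counted separately here.
Ephb2-201: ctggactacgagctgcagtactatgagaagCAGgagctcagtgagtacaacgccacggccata
Ephb2-202: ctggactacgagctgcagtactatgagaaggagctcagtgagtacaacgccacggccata

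For Slit2, retained-intron transcripts held more than coding ones in both pools. Slit2-202, which encodes a full-length protein, had 12.4 TPM in replicate 1 and 12.8 in replicate 2, and the retained-intron transcript Slit2-207 had 11.8 and 11.2 TPM. The 6 retained-intron transcripts of Slit2 that reached 1% of its TPM in either pool held 50.7 ± 2.2% of its TPM and the coding ones 44.3 ± 0.23%. With coding transcripts alone the ratio of Slits to Robos was 0.324. Slit3-201, the coding transcript of Slit3, had 1.64 TPM in replicate 1 and 2.70 in replicate 2. Slit3-202, without a coding sequence, held 36.8% and 23.0% of the Slit3 TPM. Slit3-204, also without one, had 0.17 and 1.30 TPM, with deposited intervals that overlapped between the pools. The higher level of Slit3 in replicate 2 thus lay in part in Slit3-204 and not in the coding transcript alone. Slit1 was shared between 2 coding forms, Slit1-203 at 5.88 and 4.47 TPM and Slit1-201 at 4.40 and 4.53 TPM, which could not be ordered.

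Robo2 and Robo3 also had retained-intron transcripts, though coding ones held more, 59.3 ± 4.4% of Robo2 and 55.7 ± 5.4% of Robo3. The retained-intron transcript Robo2-209 led Robo2 with 14.3 TPM in replicate 1 and 18.4 in replicate 2, above each of the coding transcripts Robo2-202 at 11.5 and 11.0 TPM and Robo2-203 at 7.12 and 6.11 TPM. Robo3 is known for forms that either remove or keep an intron near the end of the reading frame and that act differently before and after an axon crosses the midline. The junction is printed because both forms were listed in these data. Capitals mark bases of the intron that the frame of Robo3-205 runs into (minus strand, chr9:37417198-37417325), and Robo3-202 lacks them.
Robo3-205: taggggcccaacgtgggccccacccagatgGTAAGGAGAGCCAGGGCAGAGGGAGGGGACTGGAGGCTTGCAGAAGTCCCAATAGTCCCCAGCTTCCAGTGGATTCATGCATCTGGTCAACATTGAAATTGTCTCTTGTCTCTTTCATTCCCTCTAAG
Robo3-202: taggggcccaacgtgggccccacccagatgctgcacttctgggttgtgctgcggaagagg

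Robo3-202, with the intron removed, held 59.5% of the Robo3 TPM in replicate 1 and 51.9% in replicate 2. Robo3-205, with the intron kept and classed as subject to nonsense-mediated decay, held 7.22% and 7.31%. Robo3-203, a retained-intron transcript without a coding sequence that holds the same bases, held 4.76% and 12.2%. Both together came to 2.26 TPM in replicate 1 and 3.91 in replicate 2, so the form without the intron was the more abundant in both pools. A further 28.5% and 26.6% were assigned to Robo3-206, which has an intron elsewhere and not this one. In Robo4 the 3 coding transcripts Robo4-201, Robo4-203 and Robo4-202 had 1.92, 1.08 and 0.82 TPM in replicate 1, with overlapping intervals.

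In the netrin family coding transcripts held the larger part of every gene. Dcc-202 held 75.2% of the Dcc TPM in replicate 1 and 70.9% in replicate 2 and Dcc-201, whose coding sequence is 60 bases shorter, 20.1% and 25.1%. Short coding transcripts added 11.2% and 15.7% to Ntn1 (Ntn1-203) and 26.6% and 23.8% to Ntn4 (Ntn4-202). The share of Ntn4-202 is uncertain, with deposited intervals of 0.0705 to 1.83 TPM in replicate 1 and 0.000101 to 1.73 TPM in replicate 2. Unc5c-202 held 63.9% in replicate 1 and 51.1% in replicate 2, beside short noncoding transcripts with wide intervals.

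In Unc5a the leading transcript lacks an exon that another one has. Unc5a-201 has this exon of 168 bases in the part that encodes the extracellular domain, printed in capitals (plus strand, chr13:54997193-54997360), and Unc5a-202 joins the flanking exons directly.
Unc5a-201: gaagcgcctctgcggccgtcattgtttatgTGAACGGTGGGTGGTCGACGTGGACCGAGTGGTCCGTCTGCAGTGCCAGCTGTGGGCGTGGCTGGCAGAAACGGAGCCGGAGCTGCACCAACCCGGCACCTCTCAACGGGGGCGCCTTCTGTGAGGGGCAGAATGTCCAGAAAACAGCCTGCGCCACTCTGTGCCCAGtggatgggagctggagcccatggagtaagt
Unc5a-202: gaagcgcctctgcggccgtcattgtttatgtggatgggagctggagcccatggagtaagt

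Unc5a-202 had 3.55 TPM in replicate 1 and 3.23 in replicate 2, and Unc5a-201 had 0.38 and 0.36 TPM. Of the sum of these forms the one with the exon held 9.85 ± 0.25%. The deposited intervals of the 2 forms were apart in both pools, 0.0519 to 1.25 TPM with the exon against 2.36 to 3.94 TPM without it in replicate 1.

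Most guidance genes differed between the pools by less than the threshold of 0.5 used here. Ratios here are log2 of (TPM + 1) of replicate 1 over replicate 2, a scale that understates the change of low genes. Of the 35 genes at a mean of 1 TPM or more, 2 lay beyond 0.5 in either direction, against 2.96% of 13092 protein-coding genes. Both, Slit3 at -0.68 and Ephb2 at -0.56, were higher in replicate 2, where the background is 2.12%. On expected counts scaled by TMM or by DESeq2 size factors, Ephb2 no longer passed 0.5 and Slit3 alone did. With 2 genes past 0.5, no difference from the background can be read at that threshold. At a threshold of 0.3, 9 of the 35 genes (25.7%) passed, against 10.3% of the 13092 protein-coding genes.

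**Figure D4:**
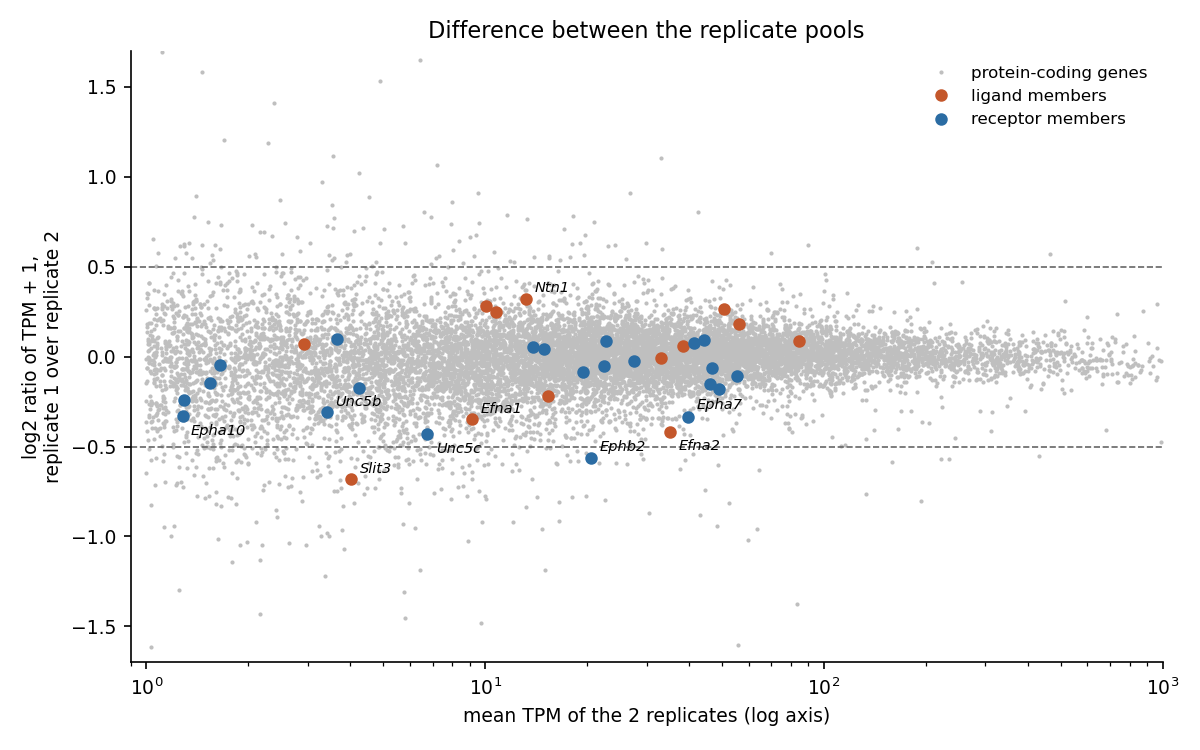
Log2 ratio of TPM + 1 in replicate 1 over replicate 2 against mean TPM on a log axis, for 13092 protein-coding genes in grey, 70 of which lie outside the axes, and for the guidance genes as ligands (orange) and receptors (blue). Dashed lines are at 0.5 and -0.5, and genes beyond 0.3 are named. Slit3 at -0.68 and Ephb2 at -0.56 lie past the lower line, and Ntn1 is the highest at 0.32.

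By the deposited intervals, which cover read counting and assignment, 13 of the 35 genes (37.1%) were apart between the pools, against 15.2% of all protein-coding genes. Of these, 8 were higher in replicate 2 (Epha3, Epha5, Epha7, Ephb2, Efna1, Efna2, Slit3 and Unc5b) and 5 in replicate 1 (Efnb2, Efnb3, Robo1, Ntn1 and Dcc). The median size of the ratio was 0.15 for guidance genes and 0.09 for all protein-coding genes. Intervals narrow with read number, and the guidance genes had a median of 1473 expected counts against 1138 for all protein-coding genes. The part of depth in the higher count was not tested.

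Regional marker genes also differed between the pools. Of 12 ventral telencephalon markers 8 were beyond 0.5 and higher in replicate 1 (Dlx1, Dlx2, Dlx5, Dlx6, Gsx2, Nkx2-1, Lhx6 and Lhx8), and the list summed to 758 TPM in replicate 1 and 524 in replicate 2, with a median ratio of 0.58. In the other direction, 3 of 10 roof plate and choroid plexus markers (Ttr, Msx1 and Msx2), 2 of 12 markers of meninges (Foxc1 and Twist1), 2 of 10 mural markers (Acta2 and Tagln) and 1 of 10 erythroid markers (Hbb-bh1) were higher in replicate 2. The roof plate and choroid plexus list summed to 193 TPM in replicate 1 and 283 in replicate 2 and the list of meninges to 947 and 1104 TPM. The mural list summed to 101 TPM in replicate 1 and 130 in replicate 2, with a median ratio of -0.041. Its genes other than Acta2 and Tagln ran in both directions, within 0.5. The erythroid list summed to 12289 TPM in replicate 1 and 16462 in replicate 2, with a median ratio of -0.405, although 1 gene alone passed 0.5. None of the 10 dorsal telencephalon or 10 endothelial markers passed 0.5. The part of these regions and cell types in the ratios of Slit3, Ephb2, Ntn1 and the other guidance genes was not tested.

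The signalling partners of the receptors were present with few exceptions. Of 28 listed partners of Ephs and ephrins all 28 passed 1 TPM in both pools and 0 lay beyond 0.5 between them. The highest were the adaptor Crk at 117 ± 3.8 TPM, the ephrin-cleaving protease Adam10 at 65.4 ± 0.53 TPM, the Ras GTPase-activating protein gene Rasa1 at 61.6 ± 0.042 TPM, the phosphatase Acp1 at 59.0 ± 0.83 TPM and the PDZ protein gene Pick1 at 54.6 ± 1.7 TPM. All 27 partners of Slits and Robos passed, and Hs6st1, an enzyme that modifies heparan sulfate, was the 1 gene beyond 0.5, with 4.15 TPM in replicate 1 and 6.89 in replicate 2. Here the glypican Gpc1 led at 117 ± 20.5 TPM, followed by Nell2, the ligand of Robo3, at 88.5 ± 1.0 TPM. Flrt3, a co-receptor of Robo1, had 58.8 TPM in replicate 1 and 71.0 in replicate 2, the syndecan Sdc1 58.8 ± 1.6 TPM and Ext2, an enzyme of heparan sulfate synthesis, 56.8 ± 0.37 TPM.

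Of 22 listed netrin partners 21 passed and 0 lay beyond 0.5. Maged1, an intracellular partner of Unc5 receptors, stood at 725 ± 28.1 TPM, far above the phosphatidylinositol transfer protein gene Pitpna at 78.4 ± 0.17 TPM and the focal adhesion kinase gene Ptk2 at 67.3 ± 1.1 TPM. The motor Myo10 had 67.3 TPM in replicate 1 and 53.9 in replicate 2, and Rgmb, a ligand of Neo1, 54.2 and 49.0 TPM. Ntn5 was the exception, with 0.28 TPM in replicate 1 and 0.19 in replicate 2. Nell2 and Rgmb, which are bound by Robo3 and Neo1, were thus both more abundant than every Slit and netrin gene measured.

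Promoter sequence was examined as a feature the choice of genes did not use. RefSeq promoter windows of 300 bases (GRCm38.p6, 250 before the start to 50 after it) were matched for 33 of the 38 genes, with 38 windows in all; Ntn1, Unc5d, Slit1, Efnb3 and Dcc are not included. The median window of a guidance gene held 21.5 CG dinucleotides, against 7 over all 32851 windows. At least 10 were present in 35 windows (92.1%), against 43.5% of all windows. The windows of this background belong to 27025 genes and were not limited to protein-coding or expressed genes. The part of gene class and expression in these contrasts was not tested. The letters TATAAA, on either strand, were found in 2 windows (5.26%, those of Slit2 and Efnb2) against 13.6%, and CAGCTG, which reads the same on both strands, in 5 (13.2%) against 16.3%. A match is a run of letters and not a site that was shown to be used.

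CG content was not lower in the scarce genes. The 24 windows of genes at 10 TPM or more had a median of 22.5 and the 10 windows of genes under 5 TPM a median of 26. Robo4 had the fewest CG dinucleotides, 2, and Epha8, at 1.10 and 1.48 TPM, the most, 56. Stretches of 120 bases that end before the start are shown for the highest ephrin and receptor genes and for the scarce Epha2 and Robo4, with CG in capitals, on the strand of each gene. They are chrX:99135941-99136060 for Efnb1 (plus), chr16:63864176-63864295 for Epha3 (minus), chr4:141301101-141301220 for Epha2 (plus) and chr9:37401777-37401896 for Robo4 (plus).
Efnb1: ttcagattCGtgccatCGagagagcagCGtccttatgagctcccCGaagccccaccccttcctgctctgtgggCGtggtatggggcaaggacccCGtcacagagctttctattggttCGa
Epha3: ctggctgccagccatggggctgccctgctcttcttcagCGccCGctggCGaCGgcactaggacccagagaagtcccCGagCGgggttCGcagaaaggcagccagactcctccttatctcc
Epha2: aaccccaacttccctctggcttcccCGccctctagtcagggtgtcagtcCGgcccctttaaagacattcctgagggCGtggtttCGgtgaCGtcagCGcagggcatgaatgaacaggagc
Robo4: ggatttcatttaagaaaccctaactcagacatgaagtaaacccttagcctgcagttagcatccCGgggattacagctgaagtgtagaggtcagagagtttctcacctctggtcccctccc

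In these stretches Efnb1 and Epha3 each have 7 CG dinucleotides, Epha2 has 6 and Robo4 has 1. The scarce Epha2 is thus close to the abundant genes in this measure, and Robo4 stands apart among the stretches shown. In whole windows Epha2 had 10, against 14 for Efnb1 and 18 for Epha3. The abundant Robo2, at a mean of 46.2 TPM, had windows with 5, 9 and 17. Only the window with 17 lies at the start of the gene to which that level belongs. The windows with 5 and 9, from 75092721 and 75447244, lie outside its span (chromosome 16, 73891839 to 74411825, minus strand). Both windows are included in the counts and medians above.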

How the data were processed

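Total RNA-seq tables for 2 forebrain pools were used. The authors' deposited tables give expected counts (estimated reads per feature) and TPM per replicate, made from alignments to the transcriptome on mm10 with GENCODE M4, per the text deposited with them. The deposited interval bounds, treated as a score in TPM, belong to the posterior mean, and their level is not given. The maximum-likelihood TPM of Epha3 and Robo1 (2 genes) fell outside them in both pools. At the transcript level the deposited value is the percent of the gene's TPM that a transcript holds. Per the labels, RNA was extracted with mirVana, ERCC spike-ins were used, the linked protocols include the SMARTer Ultra Low kit, and the series is marked as superseded. Neither aligner nor quantifier is named in the sources used here.

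Identifiers without their version were looked up in GENCODE M21 (also mm10) for symbols, positions and transcript classes. For 9 of 77 guidance transcripts at 1 TPM or more, among them Dcc-202 and Slit2-202, its length differs by at least 300 bases from the tables, which affects where reads could be counted and how TPM was scaled. Detection was set at 1 TPM in both pools. Neighbours differed where both pools and both intervals were apart. Pools were compared as log2(TPM + 1) with a threshold of 0.5, without a test, since each side is 1 library, and the ligand to receptor ratios are given per pool, also without a test. The labels give both pools the same donor entry, so the spread between them may in part be technical. Rounded expected counts went into TMM (edgeR 4.0.16) and DESeq2 1.42.0 for size factors, under R 4.3.3. Other steps used Python 3.11.15, numpy 2.4.6, pandas 2.3.3 and matplotlib 3.10.9, and the comparison of pools was tested on simulated data. The intervals hold counting and assignment error alone, and PCR duplicates could not be recognised without molecular identifiers.

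The members, the partner and marker lists and the transcripts and promoters printed were chosen with earlier results of these data known. All members were named, with the 5 highest partners of each list, every partner under 1 TPM, and members in which another transcript with a coding length at least 10% different, or none, held 10% or more. The transcripts of Dcc, Slit1 and Unc5a, the Robo3 forms with the intron and the promoter examples fall outside that rule and were chosen after their values were seen, and of the markers those beyond 0.5 are named.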

Additional observations from a re-analysis of the deposited data

How the results depend on the processing

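The ratios of summed ligand to receptor TPM kept their direction under every alternative run except the ratio of medians, which reversed it to 9.28 for ephrin-A over EphA and to 1.51 for netrins. For ephrin-A the ratio was 0.497 without Efna5 and Epha3 and 0.820 with coding transcripts only. For ephrin-B it was 3.02 by medians, 1.50 without Efnb1 and Ephb1 and 2.42 without Ephb6. For Slits it was 0.454 by posterior mean TPM, 0.331 by medians, 0.219 without Slit2 and Robo2, 0.540 without Robo3 and Robo4 and 0.324 with coding transcripts only. For netrins it was 0.0672 without Ntn1 and Dcc, 0.268 without Neo1 and 0.223 with Ntn3, the last chosen after seeing the data. The cause was not tested beyond what each alternative leaves out. The 2 members beyond 0.5 between the pools became 3 with a pseudocount of 0.1 (5.31% of all genes tested), 0 with a pseudocount of 5 (0.718%), 1 with TMM (2.40%), 1 with DESeq2 size factors (2.44%), 1 at a mean of 5 TPM or more (1.62%), 9 at a threshold of 0.3 and 0 at a threshold of 1 (0.275%). At 0.3 the 9 were 25.7% of 35 members, against 10.3% of all genes. Leaving out a replicate gave a median level of 15.15 to 16.51 TPM, and it gives no count of members that differ between the pools. The count of detected members ran from 26 at 5 TPM to 37 at 0.5 TPM. Posterior mean TPM moved 6 of 37 levels by more than the SD, in percent most of all Epha2, to 2.07 TPM, and in TPM most of all Slit2, to 34.7 TPM. No paired analysis was possible because the replicates form 1 group. Depth limits the genes near 1 TPM, whose intervals span a large part of their level.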
